A study of Mus musculus with 10 samples.

Results

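Chromatin regions were sought whose accessibility changed with the SKG genotype in one way in thymic iNKT1 cells and in another way in thymic iNKT2 cells. The measure was the interaction of genotype and subset, the log2 change from BALB/c to SKG in iNKT2 minus the same change in iNKT1, taken over all 10 libraries of the series and all 94823 regions. A call needed an adjusted p (Benjamini-Hochberg) below 0.01 and a difference of 4-fold or more in edgeR's quasi-likelihood test. By this rule 502 regions (0.529% of those tested) were called, 179 positive (0.189%), in which SKG was relatively more open in iNKT2, and 323 negative (0.341%), in which SKG was relatively more open in iNKT1.

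ATAC-seq counts, region by region, where a transposase could cut into DNA that is not covered by nucleosomes. There were 2 libraries each of iNKT1 cells from BALB/c and from SKG mice and 3 each of iNKT2 cells, all sorted from thymus, iNKT1 as CD27+ CD122+ and iNKT2 as CD27+ CD122- cells by the study's methods. SKG mice are BALB/c mice with a hypomorphic mutation of Zap70, carried in every cell, so the surroundings of the sorted cells differed between genotypes too. The labels give no age or sex and do not say which libraries came from separate mice or pools, so p-values measure the spread between these libraries. A level from a sorted pool cannot tell fewer cells with an open region from less opening in each cell.

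iNKT cells recognise glycolipids on CD1d with a semi-invariant T cell receptor and divide in the thymus into iNKT1 cells, which depend on T-bet and make interferon-gamma, and iNKT2 cells, which express high PLZF and Gata3 and make IL-4. ZAP-70 is the kinase recruited to the phosphorylated CD3 and zeta chains, and downstream of it the NFAT, AP-1 and NF-kB factors bind enhancers of activation genes. NF-kB is restrained by inhibitors that it also induces, among them A20, the product of Tnfaip3.

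Sequences of the central 300 bases of regions that carried the main patterns were read from GRCm38 (mm10), plus strand. The first 4 are the positive regions of smallest adjusted p that hold an NF-kB string (GGGANTTTC on either strand, in capitals), a string found more often in positive regions than in others.
Intergenic region nearest Fam49b (chr15:64067564-64067863): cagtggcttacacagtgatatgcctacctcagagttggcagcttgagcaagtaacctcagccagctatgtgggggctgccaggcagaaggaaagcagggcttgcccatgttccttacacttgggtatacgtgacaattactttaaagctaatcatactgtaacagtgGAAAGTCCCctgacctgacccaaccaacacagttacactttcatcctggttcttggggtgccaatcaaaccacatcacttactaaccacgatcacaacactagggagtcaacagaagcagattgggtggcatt
Intron of Ern1, nearest start Icam2 (chr11:106416245-106416544): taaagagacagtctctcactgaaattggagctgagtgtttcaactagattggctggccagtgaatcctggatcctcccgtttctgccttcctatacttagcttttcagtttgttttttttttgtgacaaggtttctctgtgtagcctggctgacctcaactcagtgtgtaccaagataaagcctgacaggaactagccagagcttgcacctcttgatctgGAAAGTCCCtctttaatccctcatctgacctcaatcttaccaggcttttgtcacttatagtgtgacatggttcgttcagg
Intron of Kdm2b (chr5:122949113-122949412): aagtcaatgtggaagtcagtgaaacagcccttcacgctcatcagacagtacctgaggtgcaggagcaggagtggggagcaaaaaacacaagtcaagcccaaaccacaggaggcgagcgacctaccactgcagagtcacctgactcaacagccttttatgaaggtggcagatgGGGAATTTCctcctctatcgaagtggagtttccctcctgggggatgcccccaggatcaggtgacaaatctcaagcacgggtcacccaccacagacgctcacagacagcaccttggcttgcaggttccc
Intron of Spata48 (chr11:11506225-11506524): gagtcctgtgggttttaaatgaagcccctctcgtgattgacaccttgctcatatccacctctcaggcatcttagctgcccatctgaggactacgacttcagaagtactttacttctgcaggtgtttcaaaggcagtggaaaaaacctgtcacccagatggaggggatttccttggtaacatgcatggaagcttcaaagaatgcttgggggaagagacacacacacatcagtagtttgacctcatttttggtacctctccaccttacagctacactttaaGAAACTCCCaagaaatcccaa

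The next 2 are the negative regions of smallest adjusted p with an ETS string (CAGGAAGT on either strand, in capitals).
Intergenic region nearest Arg1 (chr10:24953948-24954247): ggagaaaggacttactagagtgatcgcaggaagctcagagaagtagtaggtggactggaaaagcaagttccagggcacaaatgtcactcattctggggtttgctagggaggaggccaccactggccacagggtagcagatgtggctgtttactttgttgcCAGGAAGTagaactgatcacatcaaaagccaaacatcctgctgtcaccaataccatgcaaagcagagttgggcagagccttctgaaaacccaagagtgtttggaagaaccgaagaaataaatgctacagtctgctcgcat
Intron of Prex2, nearest start A830018L16Rik (chr1:11229399-11229698): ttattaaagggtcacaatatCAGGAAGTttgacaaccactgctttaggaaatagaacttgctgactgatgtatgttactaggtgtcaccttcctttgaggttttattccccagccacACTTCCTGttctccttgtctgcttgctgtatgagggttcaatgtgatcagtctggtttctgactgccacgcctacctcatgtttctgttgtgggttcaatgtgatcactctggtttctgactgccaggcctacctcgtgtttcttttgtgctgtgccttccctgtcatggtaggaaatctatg

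The last 3 are the region in Ptprb, the positive region of smallest adjusted p near Il21r, and the region of smallest adjusted p in Tnfaip3, in which capitals mark any of 11 strings searched (all but the short NFAT string). In the window of Tnfaip3 the palindromic AP-1 string TGANTCA is marked, and those of Ptprb and Il21r held none of the 11.
Intron of Ptprb (chr10:116288228-116288527): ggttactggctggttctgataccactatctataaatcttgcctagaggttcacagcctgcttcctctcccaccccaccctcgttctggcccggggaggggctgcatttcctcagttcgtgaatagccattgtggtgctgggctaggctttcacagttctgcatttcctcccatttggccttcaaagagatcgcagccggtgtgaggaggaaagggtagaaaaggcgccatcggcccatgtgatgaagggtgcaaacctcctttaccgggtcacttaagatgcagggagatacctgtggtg
Intergenic region nearest Il21r (chr7:125581203-125581502): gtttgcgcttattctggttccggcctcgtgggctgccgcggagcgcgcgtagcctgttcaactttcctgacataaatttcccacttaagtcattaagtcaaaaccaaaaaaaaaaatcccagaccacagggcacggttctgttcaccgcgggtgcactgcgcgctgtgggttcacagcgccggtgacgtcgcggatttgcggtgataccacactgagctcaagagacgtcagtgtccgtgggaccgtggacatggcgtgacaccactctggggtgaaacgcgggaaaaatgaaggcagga
Intron of Tnfaip3 (chr10:19008499-19008798): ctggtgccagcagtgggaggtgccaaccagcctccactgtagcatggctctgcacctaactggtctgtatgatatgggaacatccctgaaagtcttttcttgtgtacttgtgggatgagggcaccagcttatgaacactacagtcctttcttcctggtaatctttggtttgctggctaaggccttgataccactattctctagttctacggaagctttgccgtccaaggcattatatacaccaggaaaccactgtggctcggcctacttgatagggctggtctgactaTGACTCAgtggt

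Several libraries stood apart before any contrast. Insertions inside the regions ranged from 14988590 to 36342635 per library. In iNKT2, replicate 1 of each genotype differed from its fellow replicates by a chi-square per region of 8.49 to 12.2, against 2.53 to 3.32 in the other pairs. The floor of a library, its CPM (counts per 1e+06 insertions, scaled by TMM factors) per kb at percentile 5 of the regions, was 1.41 to 1.92 in BALB/c iNKT2, 0.612 to 1.01 in SKG iNKT2 and 0.214 to 0.364 in the 4 iNKT1 libraries. Of 10 equal bins of regions by mean level, the lowest had a median interaction of -0.64 and 0 positive and 19 negative calls. The highest bin had a median of 0.18 and 6 positive and 2 negative calls. With the floor subtracted, 185 positive and 241 negative regions were called, 276 of them among the 502. Of the regions named by the rule given below, 76 kept their call and 42 lost it. This is 1 way to remove the floor, and its part in single calls was not tested otherwise. Summed CPM at starts of 6 iNKT1 marker genes was 421 to 480 in iNKT1 and 122 to 188 in iNKT2, and at 6 iNKT2 marker genes 350 to 368 in BALB/c iNKT1, 325 to 341 in BALB/c iNKT2, 393 to 409 in SKG iNKT1 and 409 to 433 in SKG iNKT2. The iNKT2 marker sum was therefore not higher in iNKT2 than in iNKT1 of BALB/c, but its genes differed. Il6ra (26.6 to 32.0 CPM against 13.0 and 14.0) and Ccr7 (22.5 to 30.6 against 21.1 and 15.6) were higher in BALB/c iNKT2. Gata3, the largest part, was lower (156 to 187 against 208 and 200). Zbtb16 (25.2 to 37.1 against 44.3 and 39.5) and Icos (42.5 to 49.8 against 56.8 and 57.8) were lower too, and Il4 overlapped. The sum at 7 iNKT17 marker genes was 11.2 to 13.0 in iNKT1 and 40.7 to 65.2 in iNKT2, in BALB/c (48.5 to 63.2) as in SKG. No region lay at the starts of Rag1, Rag2, Cd8b1, Dntt and Ptcra (double positive thymocytes), Cd79a and Ms4a1 (B cells), Lyz2 and Csf1r (myeloid cells), Cdh5 and Tek (endothelium) or Foxp3. Other genes of these lists did have signal at their starts, and some of it differed between groups. Pax5 had 12.7 to 19.5 CPM in iNKT2 and 3.40 to 5.82 in iNKT1. Cd79b had 1.76 and 0.926 CPM in BALB/c iNKT1, 3.60 and 5.65 in SKG iNKT1 and 0.124 to 1.35 in iNKT2. Cd8a had 0.388 and 0.573 CPM in BALB/c iNKT1, 1.93 and 1.22 in SKG iNKT1 and 0.0412 to 0.847 in iNKT2, and Spi1 23.4 to 29.3 in iNKT1 and 9.60 to 14.5 in iNKT2. The part of other cells in the results was not tested.

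The question of the contrast was whether the genotype change differed between the subsets, and called regions were sorted by how it differed. A call needed a difference of 4-fold, so the change in at least 1 subset had to reach 2-fold. That most calls crossed or were large in 1 subset follows largely from this rule. With a change counted from 2-fold, 168 called regions were opposite: 56 positive ones were lower in SKG iNKT1 and higher in SKG iNKT2, and 112 negative ones the reverse. Another 178 changed by 2-fold only in iNKT2 (53 positive, 125 negative), 142 only in iNKT1 (67 positive, 75 negative) and 14 in the same direction in both (3 positive, 11 negative). The classes rest on size. Among the 168 opposite regions, the genotype difference passed an adjusted p under 0.05 in both subsets in 96 (37 positive, 59 negative). Over all 94823 regions 297 (0.313%) had differences of opposite sign that both passed 0.05. Under 0.01 in both subsets, only 8 of the 56 positive and 17 of the 112 negative opposite regions passed. In iNKT1 by itself 10 and 22 of them passed 0.01. No region of the iNKT2 class passed 0.01 in iNKT1, where 1972 regions (2.08%) did so in all. With 2 iNKT1 libraries per genotype, this does not show that iNKT1 was unchanged. In iNKT1 the genotypes did not overlap in 39 of the 53 positive and 85 of the 125 negative regions of that class, against 53.4% of all regions. Of the iNKT1 class, 29 of 142 passed 0.01 in iNKT2, where 13431 regions (14.2%) did so, so the change of those 29 was smaller in iNKT2 but not confined to iNKT1. There were 15 called regions (4 positive, 11 negative) that passed 0.01 in neither genotype comparison.

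**Figure D1:**
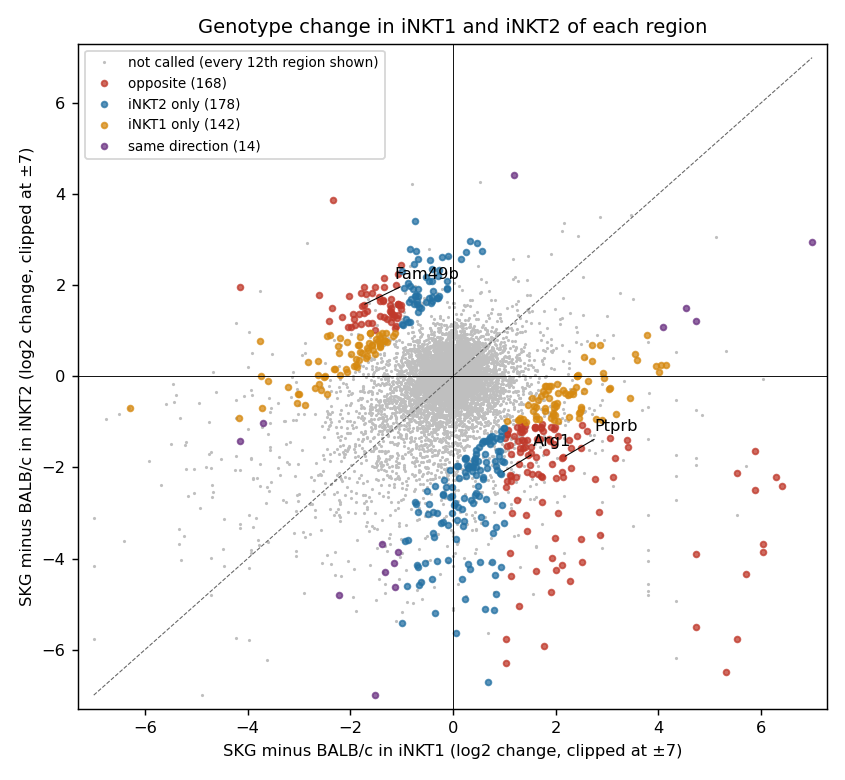
Log2 change from BALB/c to SKG in iNKT1 (horizontal) and in iNKT2 (vertical) of every called region, coloured by class, and of every 12th other region in grey, with values beyond 7 drawn at 7 and the dashed line marking equal change. The 56 opposite positive regions fill the upper left and the 112 opposite negative regions the lower right.

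The counts depended on single libraries. Leaving out 1 iNKT1 library left 58 positive and 57 negative regions (BALB/c replicate 1), 22 and 31 (BALB/c replicate 2), 11 and 53 (SKG replicate 1) or 47 and 46 (SKG replicate 2). Leaving out 1 BALB/c iNKT2 library gave 294 and 433 (replicate 1), 89 and 189 (replicate 2) or 64 and 162 (replicate 3). For SKG iNKT2 the counts were 214 and 673 (replicate 1), 195 and 248 (replicate 2) or 105 and 187 (replicate 3). Without replicate 1 of both iNKT2 groups there were 435 positive and 1396 negative regions, and 470 of the 502 were among them. With the replicate number as a block among iNKT2 libraries, 453 positive and 1081 negative regions were called, 499 of the 502 among them. Same-numbered iNKT2 libraries clearly deviated together only for replicate 1 (r = 0.421, against 0.14 and 0.138 for replicates 2 and 3). DESeq2, with other size factors and another model, gave 302 and 1090, and library totals without TMM factors 85 and 248. The 30 regions called in all 10 fits with a library left out (9 positive, 21 negative) are marked in the accounts that follow as called throughout.

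**Figure D2:**
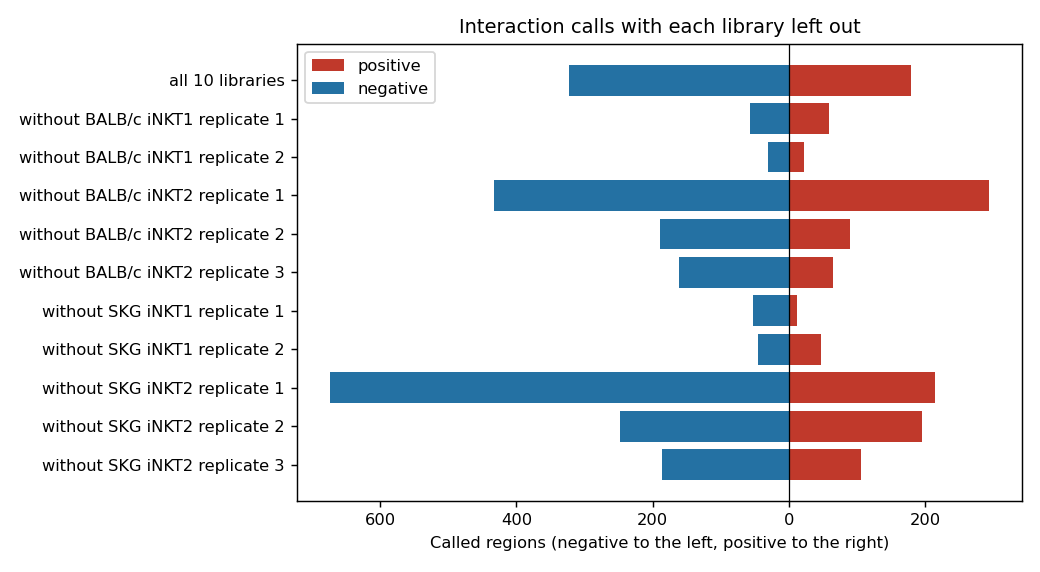
Number of called regions with all 10 libraries and with each library left out in turn, negative calls drawn to the left and positive calls to the right. Calls fell most without any of the 4 iNKT1 libraries, down to 22 and 31 without BALB/c iNKT1 replicate 2, and rose without either iNKT2 replicate 1.

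In levels, the median subset difference changed sign between the genotypes in each class and direction, with the exception of the positive iNKT1 class. There it stayed above 0, at 0.31 in BALB/c and 2.68 in SKG (log2, iNKT2 minus iNKT1). Some single regions also kept the same subset higher in both genotypes, as did the one in Ptprk below. Opposite positive regions had a median of 4.09 CPM in BALB/c iNKT1, 1.46 in SKG iNKT1, 1.94 in BALB/c iNKT2 and 5.80 in SKG iNKT2. By these medians they were more open in iNKT1 in BALB/c and in iNKT2 in SKG. Opposite negative regions went from 0.455 to 1.43 CPM in iNKT1 and from 3.48 to 0.760 CPM in iNKT2. Of all 323 negative regions, 266 (82.4%) were higher in iNKT2 than in iNKT1 in BALB/c and 86 (26.6%) in SKG, and of the 179 positive regions 59 (33.0%) and 154 (86.0%), where all regions had 51.9% and 55.5%. These shares follow in part from the contrast itself and are given as a description. The gap between subsets was smaller in SKG in 195 negative regions (60.4%) and 57 positive regions (31.8%), against 55.6% of all regions, so the negative share lay near the background.

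Among opposite positive regions the smallest adjusted p lay 7236 bp from the start of Fam49b, whose protein binds Rac1 and restrains actin remodelling and T cell activation (chr15:64067477-64067951, intergenic). Its levels were 21.4 and 24.2 CPM in BALB/c iNKT1 and 4.69 and 8.53 in SKG iNKT1. In iNKT2 they were 3.64, 3.89 and 3.88 CPM in BALB/c and 12.7, 10.3 and 10.3 in SKG. The genotypes overlapped in neither subset, as in 21.2% of all regions (53.4% in iNKT1, 38.6% in iNKT2). The log2 level in SKG fell by 1.78 in iNKT1 and was 1.55 higher in iNKT2, an interaction of 3.33 ± 0.313 (SE, edgeR adjusted p = 0.00021), and the region was called throughout.

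A region in an intron of Rftn1, which encodes the lipid raft protein raftlin, was also called throughout (chr17:50157788-50158134). It had 4.27 and 4.89 CPM in BALB/c iNKT1, 1.80 and 2.57 in SKG iNKT1, 1.76, 1.83 and 1.53 in BALB/c iNKT2 and 9.75, 5.97 and 8.56 in SKG iNKT2. SKG iNKT2 thus stood above the other 3 groups, with an interaction of 3.31 ± 0.371 (adjusted p = 0.00054). The region in Ern1, the gene of the stress sensor IRE1, had 35.8 and 49.7 CPM in BALB/c iNKT1, 18.4 and 22.5 in SKG iNKT1, 8.81, 8.54 and 5.52 in BALB/c iNKT2 and 26.4, 19.2 and 22.7 in SKG iNKT2 (interaction 2.63 ± 0.299, adjusted p = 0.00054). In SKG the subsets overlapped there. In Kdm2b, which encodes a histone demethylase, SKG iNKT2 stood highest at 54.3, 35.5 and 46.8 CPM, against 21.0, 21.7 and 17.3 in BALB/c iNKT2, 23.2 and 33.0 in BALB/c iNKT1 and 12.3 and 11.9 in SKG iNKT1 (interaction 2.40 ± 0.275, adjusted p = 0.00055). The calls in Ern1 and Kdm2b were lost without SKG iNKT1 replicate 1 (adjusted p = 0.0114 and 0.0105).

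Opposite negative regions were led by Ptprb, a receptor tyrosine phosphatase best known from endothelium, with a region in its intron 12828 bp from a start (chr10:116288121-116288636). It had 0.956 and 0.926 CPM in BALB/c iNKT1 and 4.05 and 4.23 in SKG iNKT1. In iNKT2 BALB/c had 4.89, 5.34 and 4.58 CPM and SKG 1.49, 1.47 and 1.28. Accessibility was thus at like levels in SKG iNKT1 and BALB/c iNKT2 and low in the other 2 groups, with an interaction of -3.92 ± 0.342 (adjusted p = 0.00021), called throughout. Of the endothelial genes examined, the starts of Cdh5 and Tek held no region. The start of Kdr, an endothelial growth factor receptor gene, had 2.89, 3.09 and 3.63 CPM in BALB/c iNKT2, 0.446, 0.0918 and 1.21 in SKG iNKT2 and 0.128 to 0.220 in the 4 iNKT1 libraries. Kdr was thus lower in SKG in iNKT2, as Ptprb was, but not higher in SKG in iNKT1. The start of Pecam1 went the other way in iNKT2 (19.5, 20.6 and 17.6 CPM in BALB/c, 31.3, 26.2 and 22.3 in SKG). Col1a1 of the same list did so too (9.13, 13.2 and 11.5 CPM, then 15.2, 14.1 and 16.2), and at Epcam the genotypes overlapped in iNKT2. The part of such cells in the Ptprb values was not tested.

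The same shape, low in BALB/c iNKT1 and SKG iNKT2, was found at 3 further regions called throughout. An intergenic region 112974 bp from Eef2kmt, a lysine methyltransferase gene, and within the noncoding gene Gm41414 had 0.508 and 0.529 CPM in BALB/c iNKT1, 4.56 and 4.17 in SKG iNKT1, 3.58, 3.78 and 4.21 in BALB/c iNKT2 and 1.90, 1.19 and 1.35 in SKG iNKT2 (interaction -4.41 ± 0.404, adjusted p = 0.00021). In an intron of Atp6v0a4, a proton pump subunit gene, the levels were 6.42 and 6.39 CPM, 17.9 and 21.0, 12.6, 11.7 and 12.2, and 5.35, 4.96 and 6.81 in the same order of groups (interaction -2.71 ± 0.256, adjusted p = 0.00021). In an intron of Prex2, a Rac exchange factor gene, they were 2.72 and 2.07 CPM, 7.58 and 11.5, 13.5, 9.63 and 10.5, and 3.68, 4.55 and 3.78 (interaction -3.46 ± 0.342, adjusted p = 0.0003). No library of the 2 high groups reached down to the 2 low groups in any of the 3. The fifth such region called throughout lay 317742 bp from Prickle1 (interaction -2.42 ± 0.285, adjusted p = 0.00068).

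**Figure D3:**
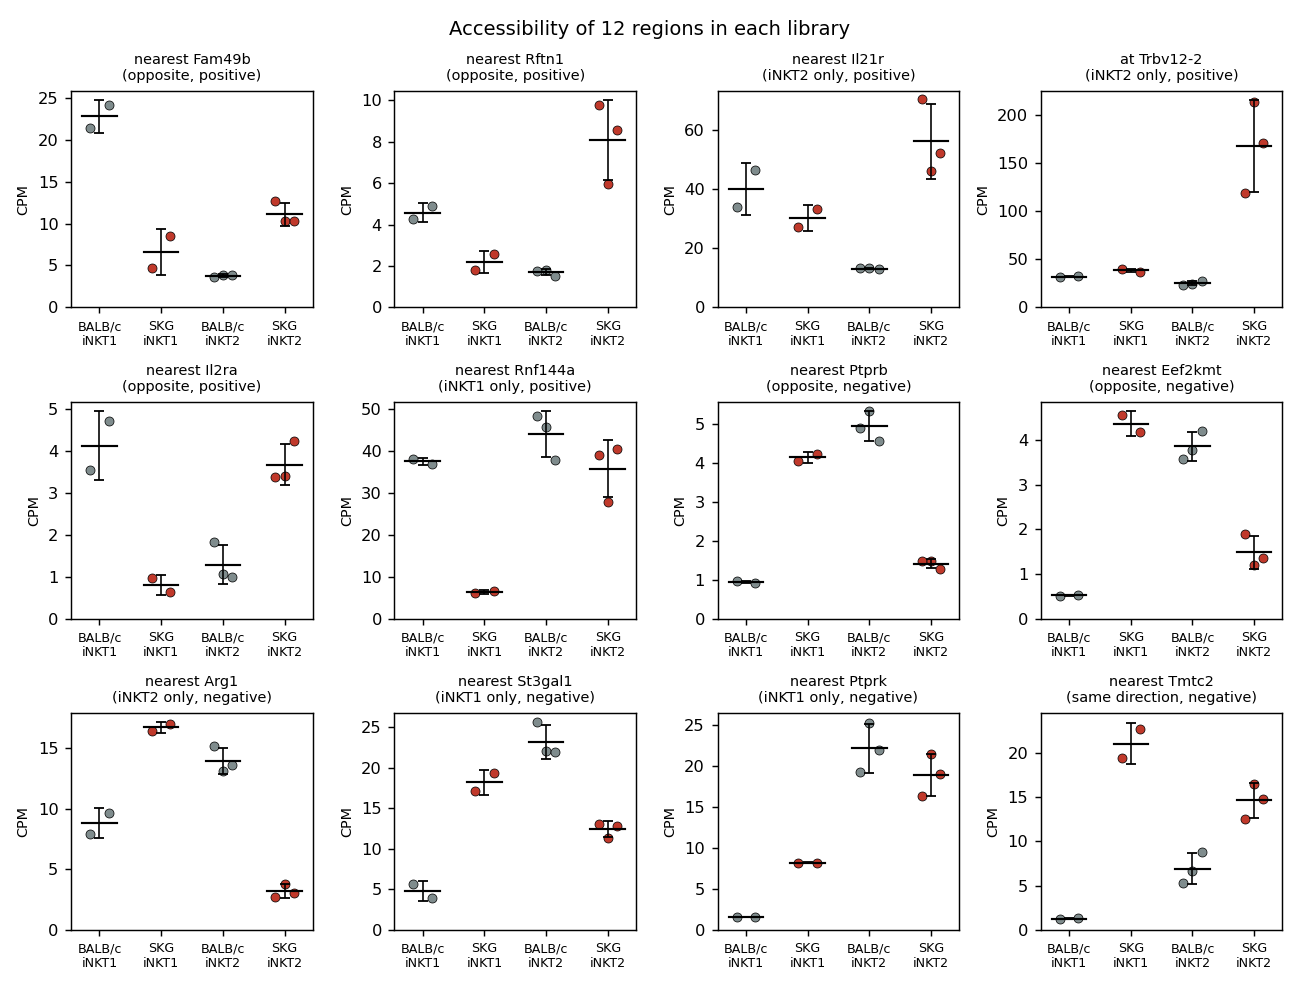
CPM of 12 regions in each library (points, BALB/c grey and SKG red), with the group mean (line) and SD (bar), n = 2 for iNKT1 and n = 3 for iNKT2. The opposite regions show high levels in the 2 groups that share neither genotype nor subset, for example Ptprb with 4.05 to 5.34 CPM in SKG iNKT1 and BALB/c iNKT2 and 0.926 to 1.49 CPM in the others.

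Positive regions that changed only in iNKT2 were led by a region 22141 bp from Il21r, the IL-21 receptor gene (chr7:125580944-125581763). SKG iNKT2 held 70.3, 46.1 and 52.1 CPM and BALB/c iNKT2 13.2, 13.3 and 13.0, while iNKT1 held 33.9 and 46.4 in BALB/c and 27.2 and 33.4 in SKG. The interaction was 2.50 ± 0.26 (adjusted p = 0.00039), and the iNKT1 difference of -0.40 ± 0.199 did not pass (adjusted p = 0.32). In an intron of Arid5b, a chromatin regulator gene, SKG iNKT2 had 6.42, 6.34 and 7.21 CPM and the other 7 libraries 0.449 to 0.979 (interaction 3.63 ± 0.432, adjusted p = 0.00071). SKG iNKT2 alone stood high there, and both regions were called throughout.

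The T cell receptor beta locus, whose V, D and J segments are joined by rearrangement in thymocytes, held 9 positive regions among the 57 that lay within 1 kb of a segment (15.8% against the 0.529% of all regions). None of the 9 changed by 2-fold in iNKT1. This locus was chosen after its values were seen. The 2 regions on Trbv12-2, called throughout, held 118 to 214 CPM and 26.7 to 31.2 CPM in SKG iNKT2. BALB/c iNKT2 held 23.1 to 27.8 and 3.31 to 4.92 CPM there, and iNKT1 of both genotypes 31.7 to 39.7 and 5.29 to 8.16. Their interactions were 2.47 ± 0.269 (adjusted p = 0.00049) and 2.46 ± 0.281 (adjusted p = 0.00055). The other 7 lay at or near Trbv12-2, Trbv13-2, Trbj1-4, Trbc2 and Trbv31 with interactions of 2.03 to 2.75. Without 1 library 3 to 10 of the locus's regions were called, namely 4 and 3 (BALB/c iNKT1 replicates 1 and 2), 3 and 3 (SKG iNKT1), 8, 5 and 4 (BALB/c iNKT2 replicates 1 to 3) and 10, 7 and 7 (SKG iNKT2). Among 55 regions at segments of the alpha and delta locus and 26 at the gamma locus edgeR called 0, with median interactions of 0.52 and -0.28.

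Negative regions that changed only in iNKT2 included the one nearest Arg1, which encodes arginase 1 (chr10:24953940-24954257, intergenic, 26614 bp from the start). Its levels were 7.94 and 9.70 CPM in BALB/c iNKT1 and 16.4 and 17.1 in SKG iNKT1. In iNKT2 they were 15.2, 13.1 and 13.6 CPM in BALB/c and 2.73, 3.81 and 3.03 in SKG. SKG iNKT2 was the lowest group, and the genotypes overlapped in neither subset. The log2 level was 0.93 ± 0.2 higher in SKG in iNKT1 (adjusted p = 0.012), just under the 2-fold limit, and fell by 2.13 in iNKT2, an interaction of -3.06 ± 0.267 (adjusted p = 0.00021), called throughout. With the limit at 1.5-fold this region would be opposite, as would 112 positive and 187 negative regions over all calls, while at 3-fold 7 positive and 41 negative would be.

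Other regions of this kind differed in which group was high. In an intron of Ndufa4, a gene of a respiratory chain protein, BALB/c iNKT2 alone was high at 19.3, 15.9 and 16.2 CPM, against 2.30 to 4.11 CPM in the other 7 libraries (interaction -2.79 ± 0.283, adjusted p = 0.00035). Near Kif5c, a kinesin gene, the levels were 10.5, 10.3 and 9.73 CPM in BALB/c iNKT2, 3.27, 2.62 and 2.29 in SKG iNKT2, 4.0 and 4.63 in BALB/c iNKT1 and 9.83 and 7.25 in SKG iNKT1 (interaction -2.87 ± 0.303, adjusted p = 0.00042). The Kif5c region was 0.99 ± 0.232 higher in SKG in iNKT1 on the log2 scale (edgeR adjusted p = 0.021). That is just under the 2-fold limit and in the other direction than in iNKT2. Near Capza3 iNKT1 was high in both genotypes (22.1 and 22.8 CPM, 19.0 and 16.1 CPM), and only the iNKT2 level changed, from 5.05, 3.81 and 4.91 CPM in BALB/c to 0.535, 0.184 and 0.405 in SKG (interaction -3.17 ± 0.366, adjusted p = 0.00057). These 3 were called throughout, as were regions nearest Bbs10, Csnka2ip, Gm10184 and Kirrel3 (interactions of -2.43, -2.90, -3.91 and -2.84). The region nearest Gm10800 was open in BALB/c iNKT2 at 17.3, 19.0 and 18.9 CPM and had 0.149 to 0.385 CPM elsewhere, with 53.3% of its bases in annotated repeats. Its call was lost without SKG iNKT1 replicate 1 (adjusted p = 0.0163).

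Positive regions that changed only in iNKT1 lost accessibility in SKG iNKT1. The region 456329 bp from Rnf144a, a ubiquitin ligase gene, went from 38.1 and 36.9 CPM in BALB/c iNKT1 to 6.04 and 6.61 in SKG iNKT1. In iNKT2 it held 48.3, 45.7 and 37.8 CPM in BALB/c and 38.9, 27.9 and 40.5 in SKG, overlapping (interaction 2.27 ± 0.247, adjusted p = 0.00049, called throughout). The intron region of Gm1043 fell from 11.1 and 9.61 CPM to 0 and 0.257 in SKG iNKT1, a total of 4 insertions, and held 5.33, 4.52 and 6.27 CPM in BALB/c iNKT2 and 2.64, 3.17 and 4.32 in SKG iNKT2 (interaction 5.59 ± 0.616, adjusted p = 0.00051, called throughout, with 4.62 to 10.4 as libraries were left out). Near Nrn1, the neuritin gene, iNKT1 had 23.8 and 21.7 CPM in BALB/c and 4.56 and 6.35 in SKG, and the 6 iNKT2 libraries 35.6 to 44.1 (interaction 2.16 ± 0.221, adjusted p = 0.00038). That call was lost without SKG iNKT1 replicate 1, where the interaction was 1.94.

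Negative regions that changed only in iNKT1 gained accessibility in SKG iNKT1. Near St3gal1, a sialyltransferase gene, iNKT1 had 5.64 and 3.92 CPM in BALB/c and 17.2 and 19.3 in SKG, and iNKT2 25.7, 22.1 and 22.0 in BALB/c and 13.1, 11.3 and 12.9 in SKG (interaction -2.82 ± 0.254, adjusted p = 0.00021). The iNKT2 difference of -0.90 on the log2 scale passed its own test (adjusted p = 0.00056). In an intron of Ptprk, a receptor phosphatase gene, iNKT1 went from 1.55 and 1.54 CPM to 8.22 and 8.15, while iNKT2 had 19.3, 25.3 and 22.0 in BALB/c and 16.3, 21.5 and 19.0 in SKG, which overlapped (interaction -2.63 ± 0.273, adjusted p = 0.00039). A pair of regions 215821 and 216305 bp from Lcorl went from 0.717 and 0.793 to 6.81 and 9.75 CPM and from 2.09 and 1.63 to 14.5 and 16.4 CPM in iNKT1, where iNKT2 held 2.70 to 4.67 and 3.00 to 4.50 CPM (interactions -3.93 ± 0.365 and -3.32 ± 0.317, both adjusted p = 0.00021). These 4, and regions nearest Cdhr3 and Npsr1 (interactions -2.56 and -2.66), were called throughout.

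In the same-direction class the change was larger in 1 subset. A region 13999 bp from Gzmb, the granzyme B gene, rose from 5.82 and 6.48 to 13.6 and 14.4 CPM in iNKT1 and from 0.188, 0.212 and 0.124 to 4.07, 3.26 and 4.72 CPM in iNKT2 (interaction 3.25 ± 0.373, adjusted p = 0.00055). At the start of Tmtc2, a mannosyltransferase gene, 2 neighbouring regions rose from 2.12 and 3.48 to 57.6 and 69.9 CPM and from 1.19 and 1.28 to 19.4 and 22.7 CPM in iNKT1. In iNKT2 they rose from 14.9, 20.1 and 26.0 to 47.0, 69.1 and 57.4 CPM and from 5.30, 6.61 and 8.82 to 12.6, 16.5 and 14.8 CPM (interactions -3.02 ± 0.343 and -3.0 ± 0.328, adjusted p = 0.00054 and 0.00049). All 3 were called throughout. The region in Cep192, lower in SKG in both subsets, was called in 3 of 10 fits with a library left out (interaction 2.67 ± 0.458, adjusted p = 0.0053), losing its call without either BALB/c iNKT1 library, either SKG iNKT1 library, BALB/c iNKT2 replicate 2 or 3 or SKG iNKT2 replicate 3.

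The gene with the most called regions was Tnfaip3, with 7 positive and 0 negative among its 61 regions (background 0.189% positive and 0.341% negative). Of these 7, 6 were opposite. The largest interaction was in the intron region chr10:19002866-19004077, with 4.30 and 14.1 CPM in BALB/c iNKT1 and 1.93 and 1.03 in SKG iNKT1. In iNKT2 this region had 2.51, 7.96 and 6.64 CPM in BALB/c and 23.1, 15.3 and 20.8 in SKG. The genotypes did not overlap in either subset, and the BALB/c libraries spread widely, from 4.30 to 14.1 CPM in iNKT1 and from 2.51 to 7.96 in iNKT2 (interaction 4.41 ± 0.707, adjusted p = 0.0037). The smallest adjusted p was that of chr10:19008247-19009051, with 8.15 and 14.8 CPM, 4.56 and 4.43, 6.21, 4.73 and 5.07, and 16.7, 10.2 and 12.4 CPM in BALB/c iNKT1, SKG iNKT1, BALB/c iNKT2 and SKG iNKT2 (interaction 2.64 ± 0.378, adjusted p = 0.002).

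Along the whole locus the pattern was shared. Of its 61 regions, 45 (73.8%) were lower in SKG in iNKT1 and higher in SKG in iNKT2, against 23.2% of all regions, with a median interaction of 1.06 against 0.06. These neighbours are not independent, and several lie within 1 gene body. The 6 called regions inside the gene lay 2540 to 8492 bp from a start and the other 62606 bp away. The count of 7 changed with single libraries: without BALB/c iNKT1 replicate 2, SKG iNKT1 replicate 1 or 2, or BALB/c iNKT2 replicate 3 it was 0, without BALB/c iNKT2 replicate 2 it was 2, without SKG iNKT2 replicate 3 it was 5, and without BALB/c iNKT1 replicate 1 it was 7. It rose to 13 and 11 without replicate 1 of BALB/c or SKG iNKT2 and to 10 without SKG iNKT2 replicate 2. With the iNKT2 block it was 17. It fell to 1 with the library floor subtracted, 1 with quantile normalization and 2 without TMM factors.

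**Figure D4:**
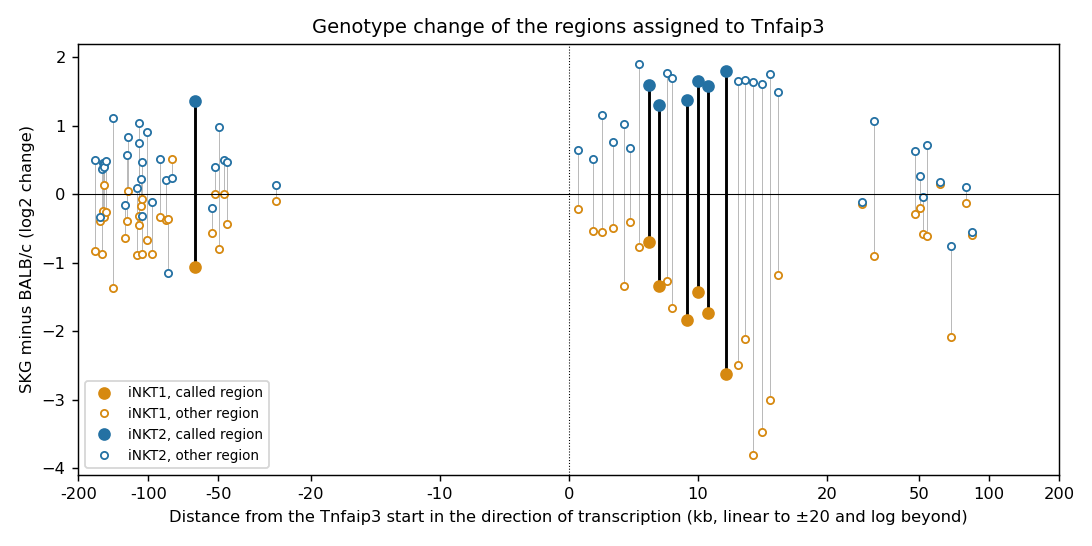
SKG minus BALB/c log2 values of the 61 regions assigned to Tnfaip3 in iNKT1 (orange) and iNKT2 (blue), joined by a line for each region, against distance from the gene's start in kb. The 7 called regions are filled, and 45 of the 61 have the iNKT1 value below 0 and the iNKT2 value above 0.

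In all, 396 genes were the nearest start of a called region, 324 of them of 1, 52 of 2 and 20 of 3 or more. Beside Tnfaip3 and the T cell receptor beta locus, positive regions gathered at Furin (4 regions), a proprotein convertase gene, at Bhlhe40 (4), a transcription factor gene that activated T cells express, and in the noncoding gene Gm14005, nearest start Spdye4c (5). At Furin the region chr7:80416914-80417538 had 49.5 and 56.7 CPM in BALB/c iNKT1, 16.5 and 25.6 in SKG iNKT1, 19.2, 20.3 and 19.9 in BALB/c iNKT2 and 38.5, 33.6 and 31.4 in SKG iNKT2. Its interaction was 2.14 ± 0.239 (adjusted p = 0.00054), and the call was lost without SKG iNKT1 replicate 1. At Bhlhe40 the strongest region had 8.75 and 10.5, 3.79 and 4.43, 5.87, 6.4 and 4.37, and 21.2, 11.5 and 16.9 CPM in BALB/c iNKT1, SKG iNKT1, BALB/c iNKT2 and SKG iNKT2 (interaction 2.80 ± 0.36, adjusted p = 0.001). Left out singly, the 4 iNKT1 libraries gave 1, 1, 0 and 1 calls at Furin and 1, 0, 0 and 0 at Bhlhe40 (BALB/c replicates, then SKG). In Gm14005 the strongest region had 10.8 and 11.2 CPM in BALB/c iNKT1, 5.46 and 5.84 in SKG iNKT1, 0.941, 1.40 and 0.948 in BALB/c iNKT2 and 3.39, 4.78 and 4.85 in SKG iNKT2 (interaction 2.91 ± 0.339, adjusted p = 0.00062), and lost its call without SKG iNKT1 replicate 1 (adjusted p = 0.0106).

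Negative regions also gathered at single genes. Lcorl, Nrp2, a receptor for semaphorins, and Ptprj, the phosphatase CD148, had 4 each, and L3mbtl3, Ccn2, Hivep3, Plce1, Tusc3, Kirrel3, Nav2 and 4930544G11Rik 3 each. At Nrp2 the region chr1:62718269-62718593 had 1.16 and 0.970 CPM in BALB/c iNKT1, 6.36 and 6.80 in SKG iNKT1, 1.10, 1.75 and 1.57 in BALB/c iNKT2 and 0.773, 0.321 and 0.809 in SKG iNKT2. SKG iNKT1 stood alone, with an interaction of -3.82 ± 0.488 (adjusted p = 0.001), lost without BALB/c iNKT1 replicate 2 or either SKG iNKT1 library. At Ptprj all 4 regions fell in SKG iNKT2 with iNKT1 little changed, for example from 2.70, 3.17 and 2.84 to 0.624, 0.459 and 0.472 CPM, while iNKT1 held 8.51 and 6.74 in BALB/c and 5.59 and 8.34 in SKG (interaction -2.30 ± 0.371, adjusted p = 0.0039). Calls at Ptprj were 0 without any single iNKT1 library, BALB/c iNKT2 replicate 2 or SKG iNKT2 replicate 3, and 2 to 4 without each of the others. At Hivep3, an NF-kB-site binding factor gene, an intron region fell in SKG iNKT2 from 11.2, 8.09 and 7.13 to 1.49, 0.505 and 0.742 CPM, where iNKT1 had 9.65 to 12.9 (interaction -3.40 ± 0.422, adjusted p = 0.00083, lost without either BALB/c iNKT1 library). Both directions occurred at Adamts20, Trib2 and Nsd3, with 3 regions each. In 12 negative regions every BALB/c iNKT1 library held 0 insertions, so no fold is given for them.

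Genes of T cell activation were examined as fixed lists, chosen with earlier results of these data known. The 12 lists held 3350 regions, of which 19 were positive and 3 negative (0.657% called against 0.529% of all), with a median interaction of 0.21 against 0.06. The list of AP-1 and NF-kB genes had 7 positive of 343, all at Tnfaip3, and a median of 0.38. Receptors that restrain or aid T cells had 3 positive of 181, at Ctla4, Tigit and Tnfrsf18, which encodes GITR. Cytokines and their receptors had 3 positive of 267, a pair at Il2ra, the IL-2 receptor alpha chain gene, and 1 at Il4ra. Cytotoxic genes had 3 positive, a pair at Fasl and 1 at Gzmb, and 1 negative at Gzma, of 125. Single calls were positive for MAPK feedback (Dusp5, 1 of 229), Notch (Hes1, 1 of 147) and trafficking (Ccr4, 1 of 230) and negative for T cell receptor signalling (Cd247, the zeta chain gene, 1 of 390) and lineage factors (Rora, 1 of 801). For NFAT and calcineurin, Egr, Nr4a and Tox, and cyclic AMP genes edgeR called 0 of 184, 0 of 219 and 0 of 234, with 29, 65 and 60 at an unadjusted p under 0.05 (19.8% of all regions) and 1, 4 and 0 called by DESeq2.

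At Il2ra a region 7582 bp from the start (chr2:11635064-11635386) had 3.55 and 4.72 CPM in BALB/c iNKT1, 0.964 and 0.642 in SKG iNKT1, 1.82, 1.06 and 0.989 in BALB/c iNKT2 and 3.39, 3.40 and 4.25 in SKG iNKT2. The genotypes crossed without overlap (interaction 3.84 ± 0.469, adjusted p = 0.00079), and the call was lost without BALB/c iNKT1 replicate 2 or SKG iNKT1 replicate 2 (highest adjusted p = 0.0121). At Tnfrsf18 the region had 16.6 and 28.2, 9.77 and 9.49, 10.3, 7.62 and 4.95, and 31.6, 20.6 and 22.6 CPM in BALB/c iNKT1, SKG iNKT1, BALB/c iNKT2 and SKG iNKT2 (interaction 2.92 ± 0.397, adjusted p = 0.0014, lost without BALB/c iNKT1 replicate 2 or either SKG iNKT1 library). At Gzma the start region fell in SKG iNKT2 from 3.36, 3.15 and 3.71 to 1.28, 0.827 and 0.674 CPM and held 14.5 to 18.3 in iNKT1 (interaction -2.04 ± 0.312, adjusted p = 0.0028), and this call was kept in 4 of 10 fits with a library left out, lost without any single iNKT1 library or SKG iNKT2 replicate 2 or 3. At Ctla4 iNKT1 fell from 5.02 and 6.52 to 1.48 and 2.82 CPM and iNKT2 held 6.65, 8.81 and 9.03 in BALB/c and 11.8, 13.2 and 14 in SKG (interaction 2.08 ± 0.354, adjusted p = 0.0052), and this call was kept in 2 of 10, without SKG iNKT2 replicate 1 or 2. Without 1 library the 22 calls on the lists became 11 and 1 (BALB/c iNKT1 replicates 1 and 2), 2 and 2 (SKG iNKT1), 34, 9 and 5 (BALB/c iNKT2) and 35, 24 and 12 (SKG iNKT2).

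Marker genes of these and other cells were read against the 0.529% of regions called and the 19.8% at an unadjusted p under 0.05. Of 326 regions at iNKT2 markers edgeR called 0 (43 at an unadjusted p under 0.05, DESeq2 1), and of 155 at iNKT1 markers 2 were positive (1.29%), both at Fasl, with 44 at an unadjusted p under 0.05. Of 64 regions at iNKT17 markers 1 was negative (Sdc1, interaction -2.24, 1.56% called), with 12 at an unadjusted p under 0.05. Of 17 at double positive thymocyte markers 1 was negative (Arpp21, -2.84, 5.88% called), with 8 at an unadjusted p under 0.05 (47.1%). Of 40 at conventional and regulatory T cell markers 3 were positive (Ctla4 and Il2ra, 7.5% called), with 20 at an unadjusted p under 0.05 (50.0%). B cell and myeloid markers had 0 of 21 each and endothelial markers 0 of 44 by edgeR and by DESeq2 (2, 1 and 12 at an unadjusted p under 0.05). Summed CPM at 2 starts of the double positive list was 1.10 to 1.19 in BALB/c iNKT1, 2.82 to 3.15 in SKG iNKT1, 2.14 to 3.32 in BALB/c iNKT2 and 1.47 to 3.00 in SKG iNKT2, and the part of such cells in the negative regions was not tested.

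Called regions lay mostly away from promoters. Within 1 kb of a protein-coding start lay 15 positive (8.38%) and 19 negative (5.88%) regions, against 23.3% of all regions. Introns held 74 positive (41.3%) and 137 negative (42.4%) regions, near the 40.7% of all regions, and intergenic DNA 84 (46.9%) and 160 (49.5%), against 32.7%. The median distance to a start was 17826 bp for positive, 47599 bp for negative and 10976 bp for all regions.

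The strings of 12 factor families were searched in the central 300 bases of every region, as a description. The NF-kB string GGGANTTTC was held by 16 of 179 positive regions (8.94%), 3 of 323 negative regions (0.929%) and 1255 of all regions (1.32%). Within the opposite positive class 11 of 56 held it (19.6%), among them those at Fam49b, Ern1, Kdm2b, Cdc37 (in its UTR, nearest start Tyk2), Gbp4, Wipf1, Mapkapk2, Prkcb, Zbtb17, Ip6k1 and Bhlhe40. The 7 called regions of Tnfaip3 did not. Over all regions with the string, called or not, the median interaction was 0.34 (n = 1255) against 0.06 without it (n = 93568), made up of -0.19 in iNKT1 and 0.16 in iNKT2. It lay above 0 in 68.4% of regions with the string and 53.9% of those without. Most regions with the string were not called (19 of 1255, 1.51%).

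Other strings differed between the directions too. The AP-1 string TGANTCA was held by 22.9% of positive, 13.9% of negative and 10.6% of all regions, and the Gata string AGATAAG by 8.38%, 3.72% and 4.19%. The ETS string CAGGAAGT was held by 5.03% of positive, 16.4% of negative and 8.48% of all regions, and the Tcf string CTTTGATG by 1.68%, 4.02% and 2.02%. The Runt string TGTGGTTT was held by 10.6%, 9.29% and 5.74%, above the background in both directions. The Egr string GCGTGGG was held by 3.35%, 2.17% and 3.68%, but by 2.42% of regions more than 1 kb from a start, the NFAT string GGAAA by 72.1%, 74.9% and 64.1%, and the E protein string CAGCTG by 19.0%, 18.3% and 17.4%. The T-box string AGGTGTNA was held by 6.15%, 5.57% and 4.82%, the ROR string TAGGTCA by 3.35%, 3.10% and 3.03% and the Klf string GGGNGTGG by 11.7%, 12.7% and 13.5%. Among regions more than 1 kb from a start, where most called regions lay, the shares of all were 1.41% for NF-kB, 12.1% for AP-1, 9.83% for ETS, 4.81% for Gata, 2.36% for Tcf and 6.87% for Runt. They were 66.7% for NFAT, 17.6% for E protein, 5.46% for T-box, 3.43% for ROR and 11.95% for Klf. Leaving out single libraries gave 7.69% to 15.5% of positive regions for NF-kB and 9.68% to 16.9% of negative regions for ETS. Overlap between strings was not removed, and a match says only that the letters are present.

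**Figure D5:**
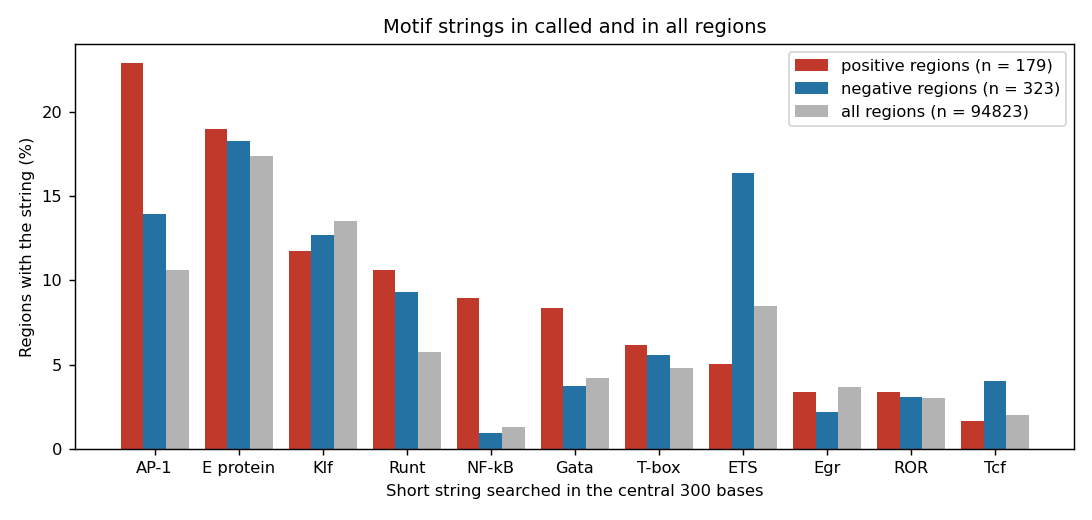
Share of positive (red), negative (blue) and all (grey) regions with each string in the central 300 bases, in percent, the NFAT string left out for its frequency. NF-kB stands at 8.94% of positive against 0.929% of negative regions and ETS at 16.4% of negative against 5.03% of positive regions.

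At the thresholds, the regions nearest Arl14 and Xkr9 were just inside the limit on p (adjusted p = 0.00999 and 0.01, interactions 3.0 and -2.32) and those nearest Cxadr and Gpr141 just outside it (-4.20 and -2.09). By size, regions nearest Klhl5 and Mfsd14a were just inside (-2.002 and -2.003), and those nearest Rgs1 and Ubash3b just outside (1.997 and 1.991). In all 877 regions (0.925%) passed the limit on p, 423 positive (0.446%) and 454 negative (0.479%), of which 375 were under 4-fold.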

How the data were processed

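By the study's methods and the submitters' processing notes, the authors used Bowtie 1.0 to place paired reads on mm10, discarded reads from mitochondria and, with Picard, duplicates, called peaks with MACS2, merged them over all replicates and counted transposase insertions per region. The deposited values, for 94823 regions (300 to 7709 bp, median 343), are whole numbers with differing totals and were analysed as raw counts of insertions. Their table is named as normalized, so that they are unscaled is inferred from the values and the tests rest on it. The totals cover insertions inside regions only, and the share outside is not given in the sources used here.

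Tests used edgeR 4.0.16 (R 4.3.3). Library scaling by TMM, 1 mean per group and quasi-likelihood F tests were fitted over the 10 libraries and all regions. SE is the size of the log2 change divided by the root of F. CPM uses TMM-scaled totals. Genes are the nearest protein-coding start in GENCODE M21 on GRCm38, with 1-based coordinates. The fit was also run on simulated counts with known changes, drawn from the real group means. Those counts had the same spread setting for all regions and libraries and no outlying replicate, unlike these data. DESeq2 1.42.0 and voom with limma 3.58.1, the study's tool, with and without quantile normalization, were alternatives, as were thresholds, filters, a GC correction in 20 bins and the omission of each library. With 1 library of a group of 2 left out, its spread was taken from the other groups, to which the lone library was assumed to be alike. Floor subtraction and the joint omission of both iNKT2 replicates 1 were chosen after seeing the data.

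Replicate numbers were checked by correlating deviations from group means. Same-numbered BALB/c and SKG iNKT2 libraries gave r = 0.421, 0.14 and 0.138. The number served as a block only in alternative fits, and the main calls and their p-values come from the fit without it. Different numbers gave -0.305 to 0.195, and BALB/c replicate 3 correlated better with SKG replicate 2 (0.195) than with its own number, so only replicate 1 stood clearly as a pair. In iNKT1 r was 0.00353.

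Named regions were the 4 of smallest adjusted p in each class and direction (2 in the same-direction class), those at Fam49b, Arg1 and Ptprb, those called with every library left out, genes with 3 or more called regions, and calls at listed genes. The members, lists, strings and rules were chosen with earlier results of these data known. All columns of the table were used.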

Additional observations from a re-analysis of the deposited data

Results flagged for a closer look

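The genotype change differed between iNKT1 and iNKT2, by the test of the difference itself, in 179 positive and 323 negative regions. At the 3 loci named for this contrast the log2 differences were 3.33 at Fam49b, -3.06 at Arg1 and -3.92 at Ptprb, and at each the SKG libraries lay all to one side of the BALB/c libraries in iNKT2 and all to the other side in iNKT1. This is a description of regions chosen by the same values. The genotypes overlapped in neither subset, on whichever side, in 21.2% of all regions. They did so in 56 of 56 opposite positive and 110 of 112 opposite negative calls. Groups held 2 or 3 libraries, too few for a test of single libraries that stand out within a group.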

How the results depend on the processing

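None of the 118 named regions reversed its direction under the alternatives that gave it a value. Without the lowest 25% of counts 9 had none. The 118 were picked as called in these same data, which favours a kept direction. Many lost their call: 91 against a 2-fold difference, 50 with quantile normalization, 45 by voom, 42 with the floor subtracted and 35 without TMM factors. By DESeq2 4 did. Counts of calls moved with nearly every choice. Positive and negative calls were 302 and 1090 by DESeq2, 83 and 144 by voom, 96 and 148 with quantile normalization, 85 and 248 without TMM factors, 113 and 261 without the lowest 25% of counts, 8 and 24 in a test against a 2-fold difference, 1506 and 1988 at adjusted p under 0.05 and 2-fold, 423 and 454 with no limit on fold, 283 and 518 with a replicate block over all libraries and 453 and 1081 with the block among iNKT2 libraries. Listed genes then held 53, 9, 9, 8, 14, 2, 158, 54, 37 and 60 calls. Neither block changed the call of any of the 118 named regions, and at Tnfaip3 they gave 17 (iNKT2) and 15 (all) calls. Subtracting the floor gave 185 and 241. Leaving out libraries gave 11 to 435 positive, 31 to 1396 negative and 1 to 63 listed calls, the highest without both iNKT2 replicates 1.

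The share of opposite regions, 33.5% of the 502, was 28.2% with the floor subtracted, 28.9% without the lowest 25%, 28.1% against a 2-fold difference, 16.2% and 19.2% under the looser thresholds, 59.6% and 9.56% with classes at 1.5-fold and 3-fold, and 24.5% to 33.7% with libraries left out. The iNKT2 class, 35.5%, was 52.5% with quantile normalization, 47.9% with the floor subtracted, 19.5% at 1.5-fold and 22.6% to 44.9% with libraries left out. The iNKT1 class, 28.3%, was 11.9% with quantile normalization, 19.9% by DESeq2, 17.6% with the floor subtracted, 24.1% with the iNKT2 block, 47.9% and 45.2% under the looser thresholds, 14.5% and 50.6% at 1.5-fold and 3-fold, and 18.5% to 40.9% with libraries left out. The NF-kB share of positive regions ran from 7.69% to 15.5% and the ETS share of negative regions from 9.68% to 16.9% with libraries left out, the latter at 12.7% in the central 200 bases and 12.5% against a 2-fold difference. The causes were not tested.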
